A study of Danio rerio with 2 samples.

Results

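The genes described here encode pituitary hormones, insulin, the insulin-like growth factors (IGFs) and leptins, their receptors and binding proteins, and the deiodinases, the enzymes that activate or inactivate thyroid hormone. They were chosen by gene symbol, and 42 of the 27095 genes in the deposited table matched. Whole brains of wild-type male zebrafish were compared with those of wild-type female zebrafish by RNA sequencing, with 1 library per sex, each from the pooled brains of 5 fish. The labels name no strain, age or time of sampling. Because each sex has a single library, differences could not be tested or checked against replicates, and the 95% intervals given throughout reflect counting error alone.

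The pituitary, a gland under the hypothalamus, releases growth hormone, prolactin, somatolactins and the glycoprotein hormones, which are dimers of a shared alpha subunit, encoded by cga, and a beta subunit specific to each hormone. Growth hormone acts through its receptors to raise IGF1, and binding proteins hold IGFs in tissue fluid and blood and limit or prolong their action. In brain, type 2 deiodinase converts the prohormone thyroxine to the active hormone triiodothyronine, while type 3 deiodinase inactivates both. Pituitary thyrotropin, made of cga and tshb products, drives the thyroid gland.

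The estimated read counts summed to 62248792 in the male library against 64300988 in the female library. Levels are given as reads, and as CPM, reads divided by a size factor per library and set against the mean library total. Each ratio is the log2 of the male level over the female level, and negative ratios mean a higher level in females. A gene counted as measured from a mean of 1 CPM, which 14756 genes reached, and was called higher in a library if it was also at least 2-fold apart with an interval that excludes 1. Of all measured genes, 1.06% were called on the male side and 2.7% on the female side. Of the 42 members, 32 were measured, 6 had reads but lay under the minimum, and 4 were listed at 0 in both libraries.

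All 4 genes listed at 0 lie in stretches of the table in which no row has a read, so their zeros say nothing about expression. The follicle-stimulating hormone subunit gene fshb, the growth factor gene igf2a and the IGF receptor gene igf1rb are on chromosome 7, where all 1319 rows beyond base 6813002 of the table's coordinates (Zv9 per the submitters' processing notes) were at 0, among them 5 ribosomal protein genes such as rpl13 and rps20. The binding protein gene igfbp6b is on chromosome 23, where all 432 rows beyond base 27121260 were at 0. No level or limit is given for these 4 genes. The luteinizing hormone gene lhb matched no row and was not analysed here.

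The rule of size called 1 member on the male side, dio2, and 0 members on the female side. Most others were close between the libraries, with 26 of the 32 measured members (81.2%) within 0.5 of 0 on the log2 scale, against 88.9% of all measured genes. The median log2 ratio of the measured members was 0.08, against -0.00 over all measured genes. Of the members, 14 (43.8%) had an interval wholly above 0 and 6 (18.8%) wholly below it, against 31.5% and 30.8% of all measured genes. These counts were not recomputed under other scalings, and some bounds lie near 0. The lower bounds of tshr, igfbp3 and insra were 0.01, 0.02 and 0.04. The upper bounds of stat5.1 and stat5.2 were -0.02 and -0.04. In bulk brain, fewer cells of a type and less RNA per cell cannot be told apart.

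**Figure D1:**
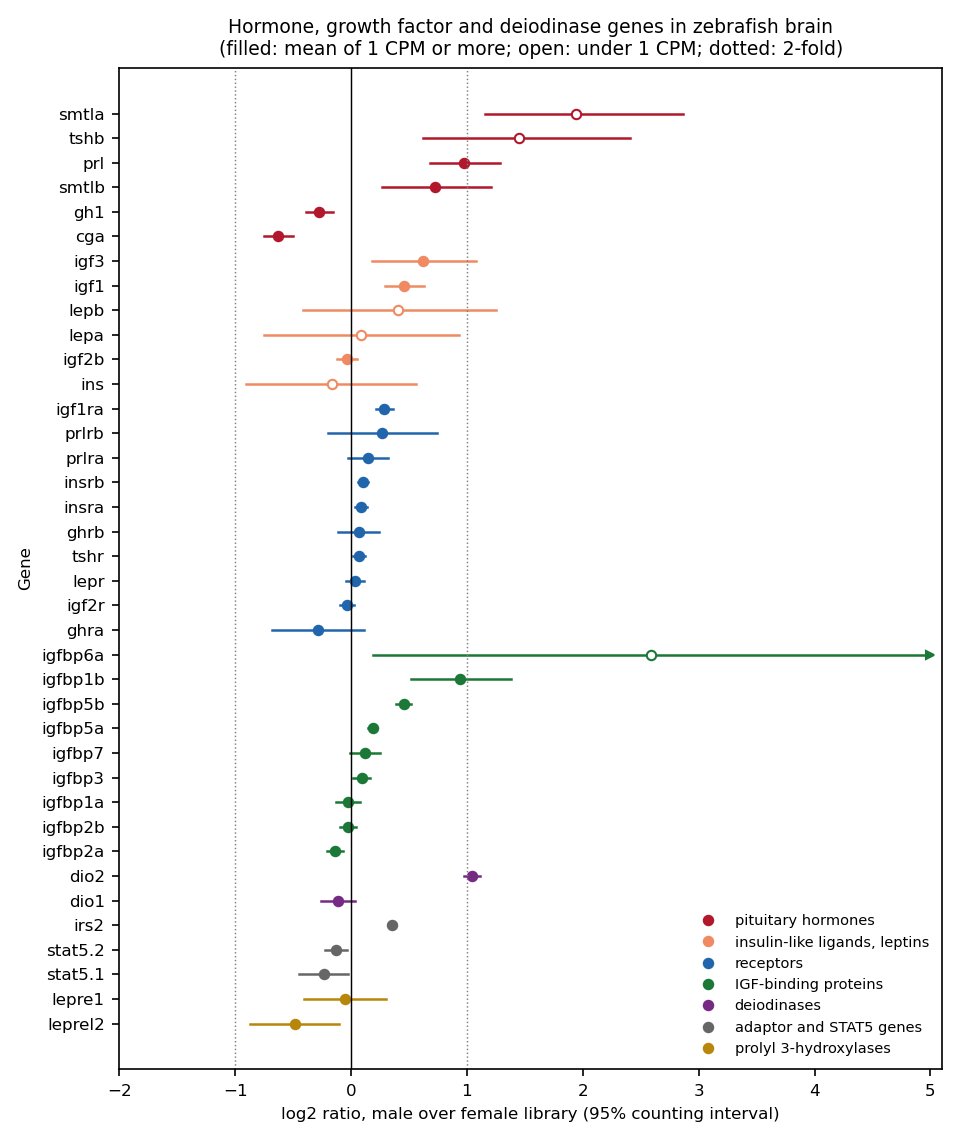
Log2 ratio of male over female reads for the 38 members with reads, ordered by role, with lines for the 95% counting interval. Filled points are measured genes and open points lie under 1 CPM. The measured dio2 stands at 1.04, prl at 0.98 and cga at -0.63, while the receptors lie between -0.28 and 0.29. The interval of igfbp6a runs past the axis.

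The pituitary hormone genes did not share a direction. The growth hormone gene gh1 had 1104 reads in the male library against 1418 in the female library (18.0 against 21.7 CPM), a log2 ratio of -0.27 (interval -0.39 to -0.16). The alpha subunit gene cga had 834 reads in the male library against 1370 in the female library, the lowest ratio of any measured member at -0.63 (interval -0.75 to -0.50). The prolactin gene prl, whose hormone acts on salt and water balance in fish, had 265 reads in the male library against 143 in the female library. Its ratio of 0.98 (interval 0.68 to 1.28) is 1.97-fold, just under the 2-fold line. Thus gh1 and cga were lower in the male library while prl was higher there, with intervals that do not overlap.

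The other detected hormone genes among the members also had more reads in the male library than in the female library, at low levels. The somatolactin gene smtlb had 100 reads in the male library against 64 in the female library (0.73, interval 0.27 to 1.21). The related smtla had 59 reads in the male library against 16 in the female library (1.94, interval 1.15 to 2.87), and the thyrotropin beta subunit gene tshb, now tshba, had 42 reads in the male library against 16 in the female library (1.45, interval 0.62 to 2.41). Somatolactins are pituitary hormones of fish related to growth hormone and prolactin. Both smtla and tshb lay under 1 CPM on average and were therefore not eligible for a call. The alpha and beta subunit genes of thyrotropin thus differed in opposite directions. The alpha subunit is shared with other glycoprotein hormones, and no value is available for their beta subunit genes fshb and lhb.

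Taking the reads of the 6 detected hormone genes together, 2404 in the male library against 3027 in the female library, shows how their make-up differed. The share of gh1 was 45.9% in the male library (exact interval 43.9 to 47.9) against 46.8% in the female library (45.1 to 48.6), which overlap. The share of cga was 34.7% in the male library (32.8 to 36.6) and 45.3% in the female library (43.5 to 47.1). The share of prl was 11.02% in the male library (9.80 to 12.3) and 4.72% in the female library (3.996 to 5.54). The second prolactin gene, prl2, is listed under a provisional symbol, is not among these 6 and had the opposite sign (-0.43). Both prolactin genes together had 510 reads in the male library against 494 in the female library, or 19.3% (17.8 to 20.8) against 14.6% (13.4 to 15.9) when prl2 is added to the set. These are shares of reads and not of molecules, since the genes differ in length.

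**Figure D2:**
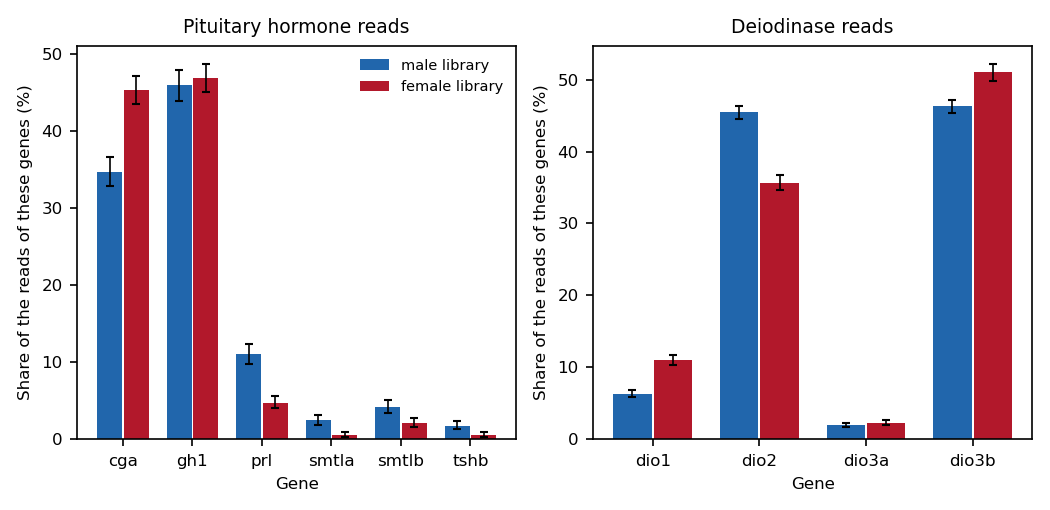
Share of reads, in percent, that each gene took of the 6 hormone genes (left) and of the 4 deiodinase genes (right), with the male library left of the female library and bars for the exact 95% binomial interval. Both cga and prl differ in share while gh1 does not beyond counting error, and dio2 took 45.5% of deiodinase reads in the male library against 35.7% in the female library.

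The labels name brain and do not say whether the pituitary was kept with it. Of 12 pituitary markers, which include gh1, prl and cga, 7 were measured and none was called. The shares called over all measured genes were 1.06% on the male side and 2.7% on the female side. Their summed level was 105 CPM in the male library against 115 CPM in the female library. The corticotropin precursor gene pomca had 795 reads in the male library against 835 in the female library (0.02, interval -0.12 to 0.16). The transcription factor gene pou1f1, which specifies the cells that make growth hormone, prolactin and thyrotropin, had 78 reads in the male library against 60 in the female library (0.46, interval -0.04 to 0.98). The marker tbx19 was listed at 0 in both libraries, as were 38.1% of all rows, so its zero is not read as absence. The part of pituitary content in the hormone values was not tested.

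Among regulators of the pituitary, 28 of 48 matched genes were measured, 1 was called in each direction and the median ratio was 0.23. The rule called 1.06% of all measured genes on the male side and 2.7% on the female side. The gene called on the male side was ghrh, which encodes the hypothalamic releasing hormone for growth hormone, with 104 reads in the male library against 46 in the female library (1.26, interval 0.75 to 1.80). The gh1 transcript thus had the opposite sign to the ghrh transcript. Of the measured somatostatin genes on the list, sst1.1 stood at 0.42 (interval 0.35 to 0.49) and sst1.2 at -0.17 (interval -0.27 to -0.07). The gene called on the female side was gnrh2, a gonadotropin-releasing hormone gene, with 132 reads in the male library against 511 in the female library (-1.86, interval -2.15 to -1.59). The related gnrh3 had the opposite sign, with 176 reads in the male library against 100 in the female library (0.90, interval 0.54 to 1.27). Both called genes lie at a mean of 1 to 5 CPM. At that level the rule called 3.77% of genes on the male side and 11.1% on the female side. Of the 48 genes, 13 were listed at 0, and 6 of those lie in stretches without reads.

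Of the growth factor and hormone ligands, igf1 showed the clearest difference. This main mediator of growth hormone had 646 reads in the male library against 499 in the female library (10.5 against 7.65 CPM), a ratio of 0.46 (interval 0.29 to 0.63). The ligand gene igf2b was level, with 2017 reads in the male library against 2195 in the female library (-0.03, interval -0.12 to 0.05). The fish-specific igf3, best known from the gonad, had 106 reads in the male library against 73 in the female library (0.62, interval 0.18 to 1.08).

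Liver and egg transcripts differed strongly between the libraries and are given here because igf1 is also made in liver and igf3 in gonad. Liver markers summed to 202 CPM in the male library against 1810 CPM in the female library, with 11 of 13 measured genes called on the female side, and f2 at 0 in a stretch without reads. The yolk precursor genes vtg1 and vtg2 made up 3.34 CPM of this sum in the male library against 1273 CPM in the female library. The other liver markers came to 199 CPM in the male library against 537 CPM in the female library. Of these, cp, which was not called, had 164 CPM in the male library against 208 CPM in the female library (-0.34, interval -0.38 to -0.30). Egg markers summed to 11.9 CPM in the male library against 76.6 CPM in the female library. Of 5 measured egg markers, 4 were called on the female side. Both counts stand beside 2.7% of all measured genes called on the female side. The part of liver and egg content in the igf1 and igf3 values was not tested.

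Insulin and leptin genes had few reads. The insulin gene ins had 31 reads in the male library against 37 in the female library (-0.16, interval -0.90 to 0.56). The leptin genes, whose hormone informs the brain of energy stores in mammals, stood at 26 reads in each library for lepa (0.09, interval -0.75 to 0.93), and at 30 in the male library against 24 in the female library for lepb (0.40, interval -0.41 to 1.25). Differences within these intervals were not detectable at this depth. Endocrine pancreas markers, which include ins and of which 2 of 6 were measured, summed to 27.2 CPM in the male library against 38.7 CPM in the female library. Most of this sum was insm1a, and without it the others came to 2.31 CPM in the male library against 3.05 CPM in the female library. Exocrine pancreas and gut markers summed to 42.4 CPM in the male library against 59.7 CPM in the female library. Of 6 measured, 2 were called on the female side, beside 2.7% of all measured genes. At 1 to 5 CPM, where these 2 lie, that share was 11.1%.

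The receptors had a median distance from 0 of 0.10, against 0.13 over all measured genes, a comparison not matched for level. Of 11 receptor genes 10 were measured, all within 0.5 of 0, and none was called. Over all measured genes 88.9% lay within 0.5 of 0, 1.06% were called on the male side and 2.7% on the female side. The insulin receptor gene insrb had 7908 reads in the male library against 7821 in the female library (0.10, interval 0.06 to 0.15), and its paralogue insra had 6666 in the male library against 6676 in the female library (0.09, interval 0.04 to 0.14). The thyrotropin receptor gene tshr, which mediates the action of thyrotropin, had 5947 reads in the male library against 6041 in the female library (0.07, interval 0.01 to 0.12). The remaining 7 measured receptors ran between the growth hormone receptor gene ghra at -0.28, whose interval of -0.69 to 0.11 holds 0, and igf1ra at 0.29 (interval 0.22 to 0.36). Of the receptors of the hormones above, ghrb stood at 0.07, prlra at 0.15, prlrb at 0.27 and the leptin receptor gene lepr at 0.04, each with an interval that holds 0. The sign of lepr turned when counts were scaled by library totals.

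Among 10 IGF-binding protein genes, 8 were measured and none was called, beside 1.06% (male side) and 2.7% (female side) of all measured genes. The gene with the widest difference was igfbp1b, with 130 reads in the male library against 72 in the female library (0.94, interval 0.51 to 1.38), or 1.91-fold. Its paralogue igfbp1a was level, with 1476 reads in the male library against 1598 in the female library (-0.03, interval -0.13 to 0.08). The intervals of this pair do not overlap. In mammals IGFBP1 is induced by fasting in liver. The part of liver content in the igfbp1b value was not tested.

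The binding protein genes with most reads differed by less. The gene listed as igfbp5a had 11992 reads in the male library against 11210 in the female library (0.19, interval 0.15 to 0.22). The gene listed as igfbp5b had 4210 reads in the male library against 3265 in the female library (0.46, interval 0.39 to 0.52). RefSeq now uses these 2 symbols the other way round for the same gene IDs. The gene igfbp2b had 3303 reads in the male library against 3579 in the female library (-0.03, interval -0.10 to 0.04). The gene igfbp7, which encodes a secreted protein related to the IGF-binding proteins, had 964 reads in the male library against 944 in the female library (0.12, interval -0.01 to 0.25). At the low end, igfbp6a had 8 reads in the male library against 1 in the female library, a ratio of 2.59 whose interval of 0.19 to 8.56 leaves its size unknown.

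Binding protein genes form 3 pairs that sit next to each other, which the symbol rule did not use. On chromosome 6, igfbp5b on the plus strand (22594883 to 22603027) and igfbp2a on the minus strand (22605878 to 22636510) are separated by 2850 bases. Their ratios were 0.46 and -0.14 (interval -0.21 to -0.07 for igfbp2a), so these neighbours differed in sign. On chromosome 9, igfbp2b and igfbp5a are 21015 bases apart, with ratios of -0.03 and 0.19. On chromosome 20, igfbp1a and igfbp3 are 4536 bases apart, with ratios of -0.03 and 0.09. No member overlapped another row of the table.

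**Figure D3:**
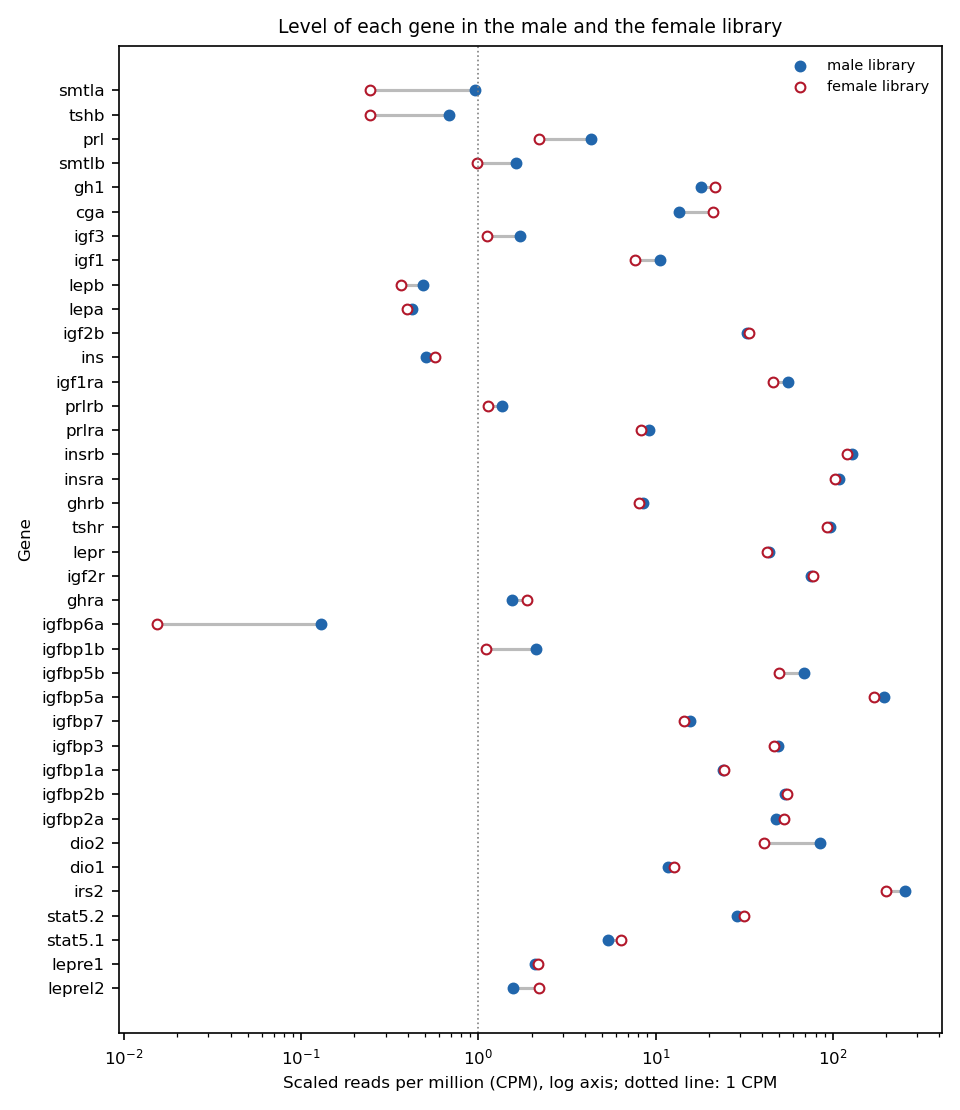
Level of each of the 38 members with reads in the male library (filled) and the female library (open), in CPM on a log axis, ordered as in the plot of ratios. The points of dio2, at 84.5 CPM in the male library against 41.0 CPM in the female library, stand well apart, while those of most receptors touch. Levels are not corrected for gene length, so they compare libraries and not genes.

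Type 2 deiodinase was the member called. The gene dio2, on the plus strand of chromosome 17 (16714628 to 16717991), had 5188 reads in the male library against 2677 in the female library, or 84.5 against 41.0 CPM. The ratio was 1.04 (interval 0.98 to 1.11), or 2.06-fold with an interval of 1.97 to 2.16, so counting error alone reaches under 2-fold. Only 0.969% of measured genes had a ratio this high or higher. Among the 8079 genes with a mean of at least 25 CPM, the level at which dio2 lies, 18 were called on the male side (0.223%). Over the alternatives computed the ratio lay between 1.001 and 1.08, with the lowest value under scaling by library totals.

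The other deiodinases differed less. Type 1 deiodinase, dio1, had 721 reads in the male library against 827 in the female library (-0.11, interval -0.26 to 0.04). The interval of dio1 holds 0 and does not overlap that of dio2. Both type 3 genes are in the table under provisional symbols and were found by their current RefSeq symbols. Of these, dio3b had 5284 reads in the male library against 3827 in the female library (0.55, interval 0.49 to 0.61), and dio3a had 217 in the male library against 171 in the female library (0.43, interval 0.14 to 0.73). The activating dio2 and both inactivating genes were thus higher in the male library, dio2 by more. Of all deiodinase reads, dio2 took 45.5% in the male library (exact interval 44.6 to 46.4) and 35.7% in the female library (34.6 to 36.8).

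No other gene of thyroid hormone transport and response was called. Of 25 matched genes 15 were measured, with 11 ratios above 0, 4 below and a median of 0.12. Over all measured genes 49.7% of ratios were above 0, and 1.06% were called on the male side and 2.7% on the female side. The thyroid hormone receptor gene thrb had 19340 reads in the male library against 18914 in the female library (0.12, interval 0.09 to 0.15). The highest ratio of the list was that of klf9, a transcription factor gene that thyroid hormone and glucocorticoids are known to induce, with 5842 reads in the male library against 3282 in the female library (0.92, interval 0.86 to 0.98). This gene lay under 2-fold and was named after its value was seen. The 4 thyroid gland markers summed to 22.7 CPM in the male library against 23.7 CPM in the female library. Most of this was slc5a5 (14.7 CPM in the male library, 13.2 in the female) and nkx2.4b (7.09 in the male library, 9.78 in the female). The thyroglobulin gene tg was listed at 0 in both libraries, as were 38.1% of all rows, so its zero is not read as absence.

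Telencephalon markers had ratios of the same sign as dio2. Of 6 telencephalon markers 5 were called on the male side, with a median of 1.57. They summed to 256 CPM in the male library against 119 CPM in the female library. For comparison, 1.06% of all measured genes were called on the male side and 2.7% on the female side. Radial glia markers summed to 1986 CPM in the male library against 2247 CPM in the female library, with none of 5 called and a median of -0.24. The part of brain region content in the dio2, dio3b and klf9 values was not tested.

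**Figure D4:**
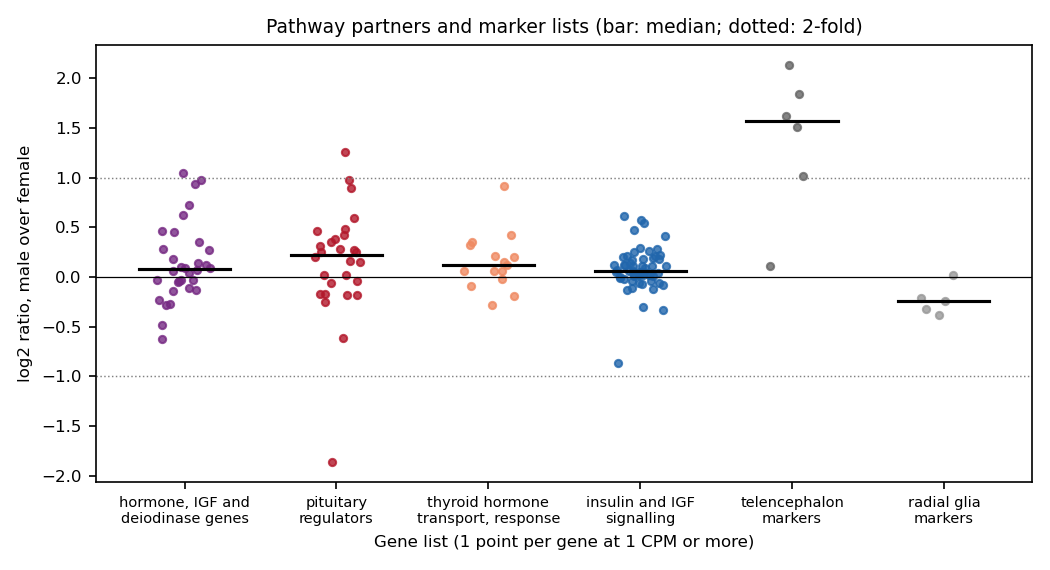
Log2 ratio of male over female for each measured gene of the hormone, IGF and deiodinase set, of 3 pathway lists and of 2 marker lists, with a bar for the median. The medians lie at 0.08, 0.23, 0.12 and 0.06 for the first 4 and at 1.57 and -0.24 for telencephalon and radial glia markers.

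No measured gene that carries the insulin, IGF and cytokine receptor signal was called. The adaptor gene irs2, now irs2b, had 15600 reads in the male library against 12950 in the female library (0.36, interval 0.32 to 0.39). Both stat5 genes, whose products carry growth hormone and prolactin signals, were lower in the male library. The gene stat5.1 had 333 reads in the male library against 417 in the female library (-0.24, interval -0.45 to -0.02), and stat5.2 had 1766 in the male library against 2057 in the female library (-0.13, interval -0.22 to -0.04). Of 63 matched genes further down these pathways 56 were measured, with a median ratio of 0.06. None was called, beside 1.06% (male side) and 2.7% (female side) of all measured genes. Their ratios ran from -0.86 to 0.61. The lowest was stat1b, with 901 reads in the male library against 1745 in the female library (interval -0.98 to -0.75). The pair with the highest mean were the kinase regulatory subunit genes pik3r3b (0.22, interval 0.19 to 0.25) and pik3r1 (0.20, interval 0.18 to 0.23).

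The symbol rule also took in lepre1 and leprel2, which encode collagen prolyl 3-hydroxylases (now p3h1 and p3h3) and have no part in leptin signalling. The first had 128 reads in the male library against 141 in the female library (-0.05, interval -0.41 to 0.30), and leprel2 had 96 in the male library against 143 in the female library (-0.48, interval -0.87 to -0.10). Meninges and vessel markers, which include collagen genes, summed to 126 CPM in the male library against 170 CPM in the female library, and their part in the leprel2 value was not tested.

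**Figure D5:**
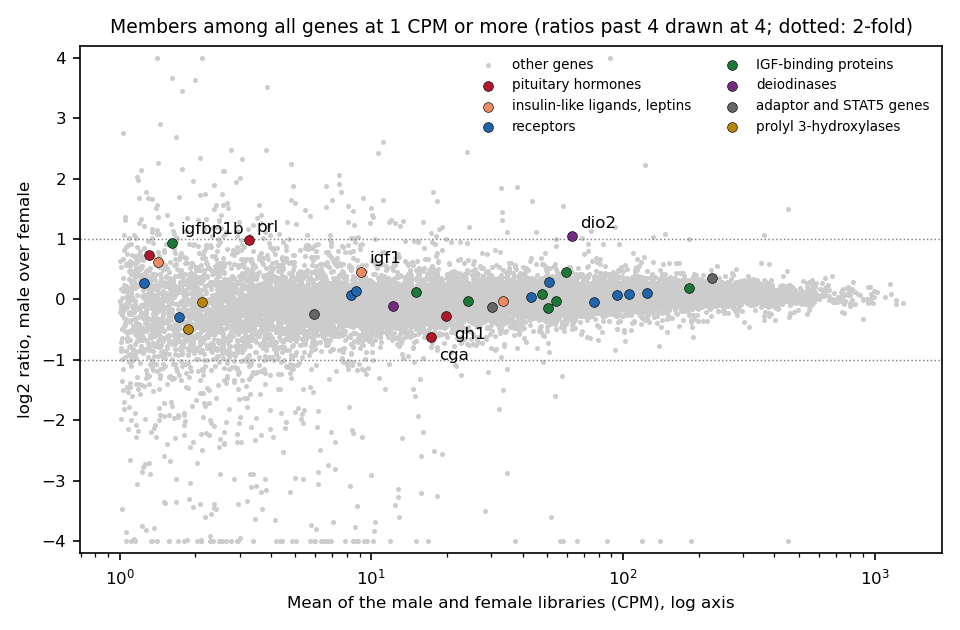
Log2 ratio of male over female against mean level in CPM (log axis) for all 14756 measured genes in grey and the 32 measured members in colour by role, with ratios past 4 drawn at 4. The spread of all genes narrows with level, and dio2 lies at the upper edge of the genes of its level while prl and igfbp1b lie among many low genes with similar ratios.

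With a limit of 1.5-fold in place of 2-fold, 5 members were called on the male side and 1 on the female side. On the male side these were dio2, prl, smtlb, igfbp1b and igf3, and on the female side cga. Over all measured genes the same limit called 2.8% on the male and 6.09% on the female side. At a mean of 1 to 5 CPM, where prl, smtlb, igfbp1b and igf3 lie, the 2-fold rule called 3.77% of all measured genes on the male side and 11.1% on the female side, so ratios near 2-fold are more common at that level.

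Relatives listed under other symbols were found by applying the same symbol rule to current RefSeq symbols, and 9 of these 14 genes were measured. The second prolactin gene prl2 had 245 reads in the male library against 351 in the female library (-0.43, interval -0.67 to -0.19), the opposite sign to prl. The adaptor genes irs1, irs2a and irs4a stood at 0.32, 0.17 and 0.10. The only called relative was igfn1.1, an immunoglobulin-domain gene known from muscle. It had 315 reads in the male library against 139 in the female library (1.27, interval 0.98 to 1.57). Its mean was 3.63 CPM. The rule called 3.77% of genes at 1 to 5 CPM on the male side, against 1.06% of all measured genes. Skeletal muscle markers summed to 329 CPM in the male library against 267 CPM in the female library. Beside the same 1.06%, 1 of 4 measured muscle markers was called on the male side. This was tnni2a.1, with 1698 reads in the male library against 585 in the female library (1.63, interval 1.49 to 1.76). The marker tnnt3a, under 1 CPM, had 89 reads in the male library against 6 in the female library. The part of muscle content in the igfn1.1 value was not tested.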

How the data were processed

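The submitters' processing notes name TopHat 1.4.1, DESeq and the build Zv9 without their roles. Which program counted reads, with which annotation, how reads matching several genes were shared and whether strand was used is not given in the sources used. Per the labels' protocols, brains of 5 fish were pooled per sex and sequenced as single 51 bp reads. The deposited raw count columns hold estimated counts (whole within 0.001 in 1.56% of nonzero male and 1.92% of nonzero female values). The deposited normalized columns are on a log2 scale and equal the log2 of the raw count after division by a constant, 0.971 in the male column and 1.03 in the female column. They served only as an alternative.

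Counts were summed over rows sharing an Entrez ID (27423 rows, 27095 genes), rounded, and scaled with median-of-ratios size factors (0.970 male, 1.03 female). The log2 ratio used 0.5 added to each count, and its 95% interval was the Clopper-Pearson interval for the share of reads from males. The intervals cover counting error only, and treat the rounded estimated counts as independent reads. Reads carry no molecular identifiers, so copies of the same molecule could not be told apart. The intervals may therefore be too narrow. A call needed a mean of at least 1 CPM, 2-fold and an interval excluding 1. The calculation was tested on simulated data. Current symbols came from RefSeq (GRCz12tu) by Entrez ID for all 42 members, 8 of which are now named otherwise. The members and lists were chosen with earlier results of these data known. Named were gh1, dio2, all ligands and deiodinases, the called genes, the 3 genes with the highest mean of each other role and members with intervals wholly beyond 0.5 from 0. Those outside this rule were chosen after their values were seen. A gene that the rule names among those of thyroid hormone response is not reported here. Alternatives were library totals, TMM factors from edgeR 4.0.16, the deposited log2 columns, removal of a lowess trend (fraction 0.3) on expression or genomic span, rows not summed, 1 count added, and other minimum levels and folds. Computations ran in R 4.3.3 and Python 3.11.15 with statsmodels 0.14.6, scipy 1.17.1, pandas 2.3.3 and numpy 2.4.6.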

Additional observations from a re-analysis of the deposited data

How the results depend on the processing

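The count of members called on the male side, 1, was 3 with the expression trend removed (prl and igfbp1b beside dio2), 2 with the genomic span trend removed (prl beside dio2), 4 with no minimum level (smtla, tshb and igfbp6a beside dio2), 5 at 1.5-fold and 0 at 3-fold. The count on the female side, 0, was 1 at 1.5-fold (cga). Neither count changed under the deposited normalized columns, library totals, TMM factors, rows not summed or a minimum of 5 CPM. The median ratio of the members lay between 0.02 and 0.14 over its alternatives. Of 266 ratios of 38 members under 7 alternatives, 256 lay inside the member's own counting interval. The 10 outside came with the expression trend removed (4), the genomic span trend removed (4) or library totals (2). With the span trend removed, insra and insrb stood at 0.01 each, igf1ra at 0.19 and igf2r at -0.12. The sign turned for 5 members, igf2b, igfbp1a, ins, lepr and lepre1, each with an interval that holds 0. Library totals moved the median of all measured genes to -0.04. The depth limits ins, lepa, lepb and igfbp6a, with under 40 reads in each library. No paired analysis was possible because each sex has 1 library.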
